A study of Arabidopsis thaliana with 48 samples.

Results

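The 10 genes described here encode the Rubisco small subunit and enzymes of the Calvin cycle in Arabidopsis thaliana. They were chosen by gene identifier, and all 10 were found among the 32833 genes of the deposited table. RBCS1A (AT1G67090), RBCS1B (AT5G38430), RBCS2B (AT5G38420) and RBCS3B (AT5G38410) encode the small subunit. RCA (AT2G39730) encodes Rubisco activase. PGK1 (AT3G12780), GAPA (AT3G26650) and GAPB (AT1G42970) encode chloroplast phosphoglycerate kinase and the A and B subunits of chloroplast glyceraldehyde-3-phosphate dehydrogenase. SBPASE (AT3G55800) and PRK (AT1G32060) encode sedoheptulose bisphosphatase and phosphoribulokinase. The RNA came from leaves of 4-week-old soil-grown plants kept under 10 h of light and 14 h of darkness, either of Col-0 wild type, called Col below, or of a myb30 knockout, which lacks a functional copy of the R2R3-MYB transcription factor gene MYB30. High light was the treatment in all samples, for 0, 2, 8 or 30 min, and the labels name leaves local or systemic, words used in this field for leaves that were and were not exposed themselves. Genotype, leaf and time gave 16 groups with 3 libraries in each, or 48 libraries. The repeats of a genotype and time came from 20 plants pooled, so spread between single plants cannot be seen, and no label says how the plants were divided over the repeats or which mutant allele was used. The 0 min and Col groups served as the reference.

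In the Calvin cycle Rubisco joins CO2 to ribulose bisphosphate, and the product is phosphorylated by phosphoglycerate kinase and reduced by glyceraldehyde-3-phosphate dehydrogenase. Sedoheptulose bisphosphatase and phosphoribulokinase act in the branch that makes ribulose bisphosphate again. Rubisco is built from large subunits encoded in the chloroplast genome and small subunits encoded by a nuclear gene family, and Rubisco activase removes inhibitory sugar phosphates from it. In light, thioredoxins reduce and activate several of these enzymes, and the small protein CP12 holds GAPDH and phosphoribulokinase in an inactive complex in the dark.

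Of the small subunit genes, RBCS1B, RBCS2B and RBCS3B stand next to each other on chromosome 5 and are near-identical, which limits how far reads can be told apart between them. Their coding sequences were 96.7% to 97.3% identical outside gaps, and RBCS1A on chromosome 1 was 90.4% to 90.6% identical to them. A stretch of 120 coding bases from the third coding exon is shown for the 3 genes. Among stretches of this length in the exon's 240 coding bases, none holds more positions at which the 3 genes differ. The stretch shown holds 3 of the exon's 5 such positions, printed in capitals. It is read from the minus strand of TAIR10.1, at chr5:15384446-15384565 for RBCS1B, chr5:15381299-15381418 for RBCS2B and chr5:15377597-15377716 for RBCS3B.

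RBCS1B: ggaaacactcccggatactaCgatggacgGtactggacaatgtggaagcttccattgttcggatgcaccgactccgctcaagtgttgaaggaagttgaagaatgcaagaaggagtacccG
RBCS2B: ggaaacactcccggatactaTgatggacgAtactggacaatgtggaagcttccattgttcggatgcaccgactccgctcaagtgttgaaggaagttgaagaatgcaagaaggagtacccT
RBCS3B: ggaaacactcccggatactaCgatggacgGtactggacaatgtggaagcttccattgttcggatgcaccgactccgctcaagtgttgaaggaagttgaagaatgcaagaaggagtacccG

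In this stretch RBCS1B and RBCS3B have the same letters. Over the whole coding sequence, 51.9% of the 50-base windows of RBCS1B occur in another small subunit gene, as do 38% of those of RBCS2B, 40.6% of those of RBCS3B and 3.64% of those of RBCS1A. With windows of 100 bases, 30% of those of RBCS1B and 28.4% of those of RBCS3B are shared, only with each other, and none of RBCS1A or RBCS2B. The other 6 genes share no window of either length with a coding sequence of any gene. How the authors counted reads that match several genes is not given in the sources used here, so values of the 3 chromosome 5 genes are uncertain to that extent.

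The sequence before the transcription start is shown for RBCS1B and RBCS2B, the small subunit genes with called changes below. Each window holds the 250 bases before the outermost annotated start, on the minus strand of TAIR10.1, at chr5:15385321-15385570 for RBCS1B and chr5:15382072-15382321 for RBCS2B. Capitals mark matches, on either strand, to the G-box (CACGTG), the I-box (GATAAG) and the GT-1 box (GGTTAA), motifs described in promoters of light-regulated plant genes. Overlapping matches of different motifs were not found in these 2 windows.

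RBCS1B: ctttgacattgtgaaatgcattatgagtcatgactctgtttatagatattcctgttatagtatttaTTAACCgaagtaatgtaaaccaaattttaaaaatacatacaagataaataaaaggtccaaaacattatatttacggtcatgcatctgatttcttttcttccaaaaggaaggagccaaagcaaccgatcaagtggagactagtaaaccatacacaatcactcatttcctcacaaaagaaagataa
RBCS2B: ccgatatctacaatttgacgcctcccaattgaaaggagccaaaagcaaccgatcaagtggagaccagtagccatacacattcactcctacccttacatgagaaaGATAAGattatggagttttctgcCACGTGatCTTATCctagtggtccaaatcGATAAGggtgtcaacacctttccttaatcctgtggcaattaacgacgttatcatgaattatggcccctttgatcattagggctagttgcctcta

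The window of RBCS1B holds 1 GT-1 box. That of RBCS2B holds 1 G-box and 3 I-boxes. Both windows share a run of 23 bases (aaagcaaccgatcaagtggagac), which begins at position -69 from the start in RBCS1B and at -209 in RBCS2B. Of the 10 genes, 2 had a G-box (RBCS2B and PRK), 2 an I-box (RBCS2B and RCA) and 2 a GT-1 box (RBCS1B and RBCS3B), against 6.49%, 12.3% and 14.6% of 27443 windows of the same length before annotated genes. RBCS1A, RBCS1B, RBCS3B and RCA have a second annotated start 73 to 243 bases further in, so for these genes the window depends on the start chosen.

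Libraries held 70514715 to 89402096 reads counted in genes. Values are normalised reads, that is, read counts that the authors divided by 1 size factor per library, and are given as mean ± SD (n = 3), for abundant transcripts in kiloreads, 1 kiloread being 1000 normalised reads. MYB30 transcripts were present in both genotypes, at 244 to 1039 normalised reads over the 24 libraries labelled Col and 176 to 818 over the 24 labelled myb30, so they overlapped and do not check the labels. Outside the systemic 0 min groups, 8 of the tested genes separated the Col from the myb30 libraries without overlap. At 100% of these the libraries labelled Col systemic 0 min replicate 3 and myb30 systemic 0 min replicate 3 lay nearer the other genotype. The other systemic 0 min libraries, which were also left out of the choice of genes, had a share of 0%. Elsewhere the share was 12.5% or less, which is largely fixed because the genes were chosen on those libraries. The stress-responsive gene WRKY40 stood at 496 to 3317 normalised reads in 3 libraries, which were myb30 systemic 0 min replicate 3, Col systemic 0 min replicate 1 and Col local 0 min replicate 3. The remaining 9 libraries of 0 min held 33.6 to 60.95. In 6 Col libraries titled 30 min the time field reads 0 min, and the titles were followed. Mesophyll and leaf markers were present as labelled, with a summed level of 3141 to 3245 kiloreads in Col local leaves at 0 min and 3156 to 3240 kiloreads at 30 min.

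All 10 genes were among the most abundant transcripts of the leaf. Per kilobase of coding sequence and averaged over all libraries, RBCS1A held the highest level of 27444 genes, with 2346 kiloreads per kilobase. RCA ranked 3, RBCS3B ranked 6, RBCS2B ranked 9 and RBCS1B ranked 29. The carbon reduction and regeneration enzymes followed, with GAPA at rank 41, GAPB at 49, PRK at 75, SBPASE at 83 and PGK1 at 121, where the level was 83.0 kiloreads per kilobase. Together the 10 genes took 5.26% to 6.88% of all normalised reads in a library. In Col local leaves this share was 5.75% to 6.64% at 0 min and 5.26% to 5.65% at 30 min. In myb30 local leaves it was 5.98% to 6.35% and then 5.37% to 5.675%. Local libraries of 0 and 30 min thus did not overlap in either genotype, and systemic ones did. For single genes the ranges over 48 libraries were narrow. The highest library exceeded the lowest by 1.41-fold (GAPA) to 1.65-fold (RCA) in 9 genes and by 2.25-fold in RBCS1B. The order of the 16 groups is therefore loose. Sorted by mean level, neighbouring groups had overlapping libraries in all 15 steps for 9 genes, and in 14 of 15 for PGK1.

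**Figure D1:**
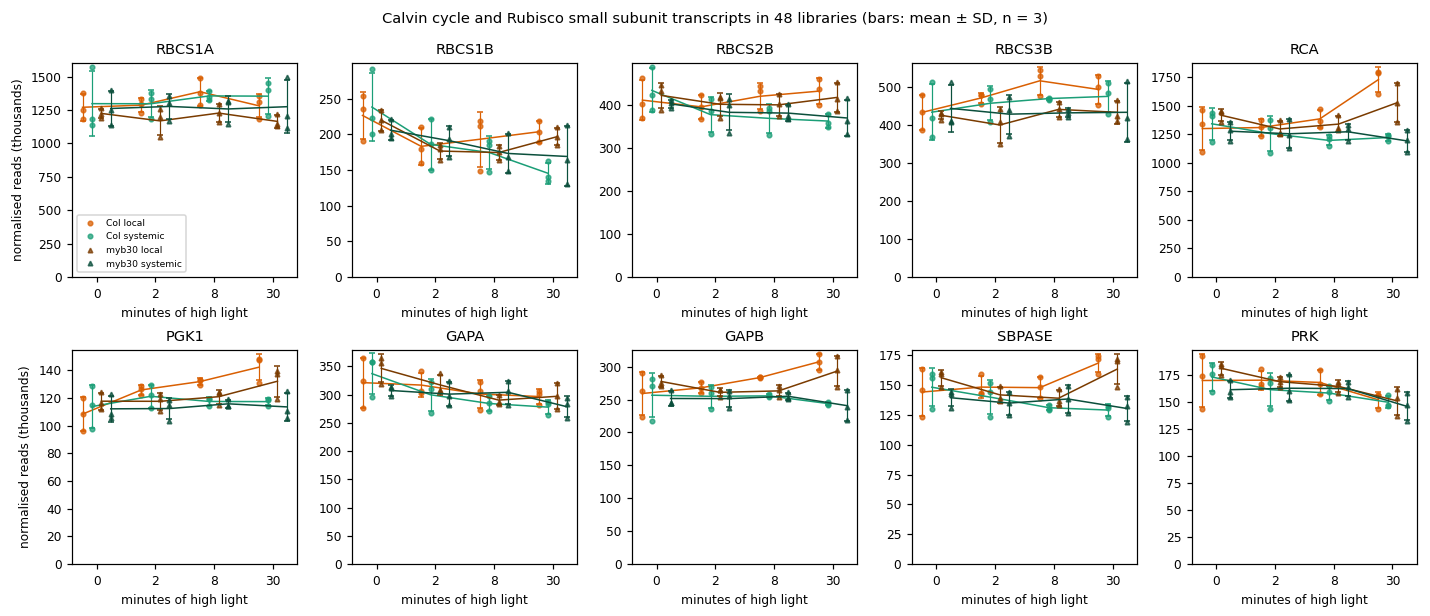
Normalised reads (kiloreads) of each of the 10 genes against minutes of high light, with evenly spaced times. Points are libraries, bars mean ± SD (n = 3) and lines join the means of Col local, Col systemic, myb30 local and myb30 systemic leaves. RCA and PGK1 are highest in Col local leaves at 30 min (1732 and 142 kiloreads), and RBCS1B is lowest in Col systemic leaves at 30 min (145 kiloreads).

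Tests below compare log2 of the value plus 1 by limma across 19556 genes, with a threshold of 0.05 on the Benjamini-Hochberg adjusted p, and a gene past it is called. Changes are log2 differences ± standard error. No label says that the pools came from separate growths, so the p-values measure only the spread between these samples, and in bulk leaves a change in the number of cells of a type and a change of RNA per cell cannot be told apart.

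The first comparison asks how the transcripts changed in Col leaves within the high light. With the deposited scaling RCA, PGK1, GAPB and SBPASE were called higher in local leaves at 30 min, and no gene of the 10 was called lower. RCA stood at 1468, 1339 and 1097 kiloreads in the 3 libraries at 0 min and at 1796, 1608 and 1791 kiloreads at 30 min. The groups do not overlap, and replicate 3 at 0 min, a library with high WRKY40, is the lowest of all 6. The means were 1302 ± 188 and 1732 ± 107 kiloreads, a rise of 0.42 ± 0.10 (1.34-fold, adjusted p = 0.000942 by limma). PGK1 stood at 120, 109 and 96.1 kiloreads at 0 min and 148, 131 and 148 kiloreads at 30 min, again without overlap, a rise of 0.40 ± 0.08 (1.32-fold, adjusted p = 0.000144). GAPB stood at 291, 263 and 224 kiloreads at 0 min and 307, 295 and 320 kiloreads at 30 min, a rise of 0.25 ± 0.08 (adjusted p = 0.00834). SBPASE stood at 163, 146 and 124 kiloreads and then at 172, 160 and 174 kiloreads, with overlap, a rise of 0.23 ± 0.09 (adjusted p = 0.0261). These 4 of 10 stand against 53.7% of all tested genes called in this comparison, 27.2% of them higher, so the count of called genes is near the background. The median change was 0.13 over the 10 genes and 0.00 over all tested genes.

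The other 6 genes were not called in Col local leaves at 30 min. RBCS1A, the most abundant, stood at 1270 ± 101 kiloreads at 0 min and 1282 ± 87.3 kiloreads at 30 min, a change of 0.01 ± 0.11. RBCS3B, with 434 ± 46.9 and 495 ± 37.9 kiloreads, changed by 0.19 ± 0.12. The remaining changes were 0.08 ± 0.10 for RBCS2B, -0.15 ± 0.16 for RBCS1B, -0.11 ± 0.09 for GAPA and -0.15 ± 0.08 for PRK.

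At 8 min PGK1 alone was called in Col local leaves, against 26% of all tested genes (13.3% higher). Its libraries stood at 133, 129 and 133 kiloreads, all above the 3 at 0 min, a rise of 0.29 ± 0.08 (adjusted p = 0.00998 by limma). The call was lost without Col local 0 min replicate 3, a library with high WRKY40 (0.21, adjusted p = 0.0982), without all 3 outlying libraries (adjusted p = 0.0743), with quantile normalization (0.14) and with the compared groups alone (adjusted p = 0.109). At 2 min none of the 10 was called by limma, edgeR or DESeq2, against 10.7% of all tested genes, and PGK1 alone had an unadjusted p below 0.05 (0.22 ± 0.08, adjusted p = 0.083). PGK1 already stood at 129, 122 and 127 kiloreads then, above all 3 libraries at 0 min.

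With each library scaled to the same total and with quantile normalization, the changes of GAPB and SBPASE became negative. Of these scalings, that of PGK1 changed sign with quantile normalization only, and RCA lost its call with the same total only. Scaled to the same total per library, the median of all tested genes moved by -0.33 in this comparison and the changes became 0.08 for RCA, 0.06 for PGK1, -0.08 for GAPB and -0.10 for SBPASE, none of them called. Under that scaling 69.6% of all genes were called, and RBCS1A, RBCS1B, RBCS2B, PRK and GAPA were lower. With quantile normalization 53.5% of all genes were called, RCA stayed higher (0.20) and PGK1 (-0.30), GAPB (-0.20) and SBPASE (-0.29) were lower. Without the 3 outlying 0 min libraries, where 47.9% of all genes were called, RCA (0.30) and PGK1 (0.31) stayed called, GAPB (0.15) and SBPASE (0.13) did not, and PRK was lower (-0.27, adjusted p = 0.00898 by limma). Without Col local 0 min replicate 3 alone, the library with the lowest values, RCA and PGK1 stayed called and GAPB and SBPASE did not. Under the same-total scaling RCA and PGK1 had the highest values of the 10 genes, as with the deposited scaling, and PRK the lowest.

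**Figure D2:**
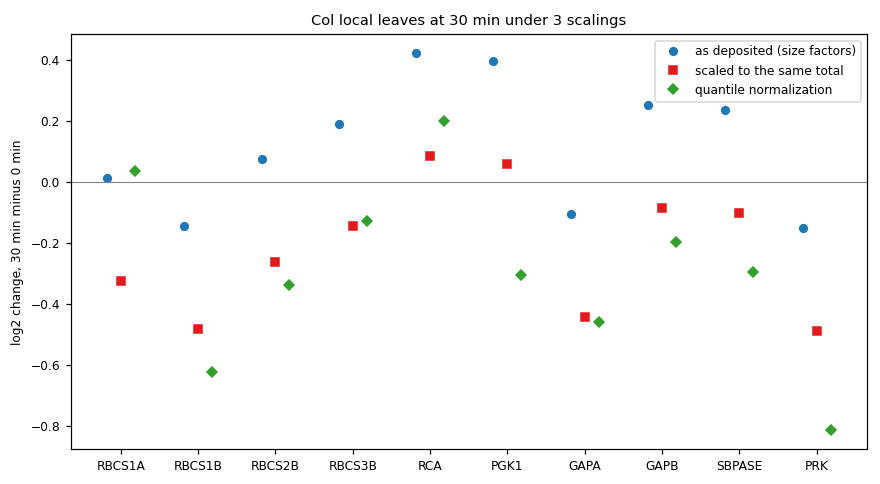
Log2 change from 0 to 30 min in Col local leaves for each gene (n = 3 per group) with the deposited size factors (circles), with each library scaled to the same total (squares) and with quantile normalization (diamonds). RCA is above 0 under all 3 (0.42, 0.08 and 0.20), and GAPB and SBPASE are above 0 only with the deposited scaling.

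In Col systemic leaves, which were away from the high light, the called genes were lower. RBCS1B fell most. It stood at 292, 222 and 201 kiloreads at 0 min, 221, 187 and 150 kiloreads at 2 min, 190, 185 and 148 kiloreads at 8 min and 140, 162 and 134 kiloreads at 30 min. All 3 libraries at 30 min lie below all 3 at 0 min. The fall was -0.70 ± 0.16 (0.616-fold, adjusted p = 0.000822 by limma), and it was called under each of 12 other settings and in each of 9 fits without a library or a library number, where it ranged from -0.82 to -0.52. GAPA stood at 358, 358 and 296 kiloreads at 0 min and 286, 284 and 263 kiloreads at 30 min, without overlap, a change of -0.27 ± 0.09 (adjusted p = 0.0181 by limma). It was called in 4 of 9 fits without a library or number, and not without Col systemic 0 min replicate 1 or 2 or 30 min replicate 3 (range -0.37 to -0.23). These 2 of 10 genes stand against 34.7% of all tested genes called, 17% lower.

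Libraries of the same number deviated together in this comparison, and with the number as a block 4 of the 10 were called lower, against 38.2% of all genes. The block added RBCS2B (-0.25, adjusted p = 0.0232, and 0.0518 without the block) and PRK (-0.21, adjusted p = 0.0438, and 0.0546 without it). Without both libraries in doubt, 4 were called lower, against 30.6% of all genes: RBCS1B (-0.81), GAPA (-0.37), SBPASE (-0.29) and PRK (-0.27). Without the 3 outlying 0 min libraries RBCS1B alone was called (-0.54, adjusted p = 0.0139 by limma). The changes of the other genes were 0.14 ± 0.12 for RBCS3B, 0.07 ± 0.11 for RBCS1A, 0.05 for PGK1, -0.06 for GAPB and -0.13 for RCA.

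At 8 min limma called RBCS1B in Col systemic leaves (-0.44 ± 0.16, adjusted p = 0.0442), against 22.4% of all genes (11.4% lower), and edgeR and DESeq2 also called GAPA (-0.24 ± 0.09, adjusted p = 0.0528 by limma). The call of RBCS1B was lost in 7 of the 9 fits that left out a library or a number. At 2 min none of the 10 was called by limma, edgeR or DESeq2, against 11.8% of all genes. RBCS1B had the smallest p then (-0.36 ± 0.16, unadjusted p = 0.0321, adjusted p = 0.143), the only unadjusted p below 0.05.

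**Figure D3:**
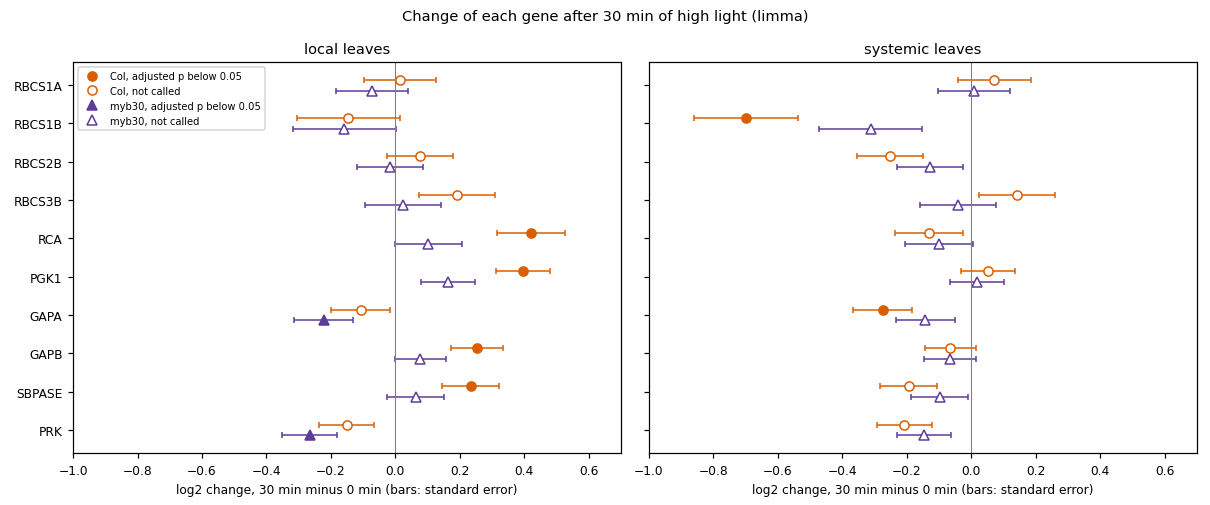
Log2 change from 0 to 30 min ± standard error (limma, n = 3 per group) for each gene in local (left) and systemic (right) leaves of Col (circles) and myb30 (triangles), filled where called. In Col, RCA, PGK1, GAPB and SBPASE are filled to the right of 0 in local leaves, and RBCS1B and GAPA to the left in systemic leaves.

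In myb30 local leaves the called changes were falls of PRK and GAPA. PRK stood at 184, 175 and 186 kiloreads at 0 min and at 153, 163 and 137 kiloreads at 30 min, without overlap, a change of -0.27 ± 0.08 (adjusted p = 0.0102 by limma). The call was lost in 3 of 9 fits with a library or number left out, without 30 min replicate 3 alone among them (-0.20, adjusted p = 0.081), and with the compared groups alone (adjusted p = 0.0575). GAPA stood at 366, 319 and 355 kiloreads at 0 min, at 287, 284 and 300 kiloreads at 8 min and at 297, 320 and 274 kiloreads at 30 min. Its change was -0.25 ± 0.09 at 8 min (adjusted p = 0.0481) and -0.22 ± 0.09 at 30 min (adjusted p = 0.0466), and the groups overlap at 30 min only. The call of GAPA was held in 1 of 9 fits with a library or number left out at 8 min and in 3 of 9 at 30 min. All tested genes were called at 18.7% (9.25% lower) at 8 min and at 44.1% (21.6% lower) at 30 min. RCA, at 1454, 1358 and 1444 kiloreads at 0 min and 1526, 1703 and 1357 kiloreads at 30 min, was not called (0.10 ± 0.10), and neither were PGK1 (0.16 ± 0.08), GAPB (0.08 ± 0.08) and SBPASE (0.06 ± 0.09). The summed level of 5 mesophyll and leaf markers was 3175 to 3503 kiloreads at 0 min and 2802 to 3051 kiloreads at 30 min in these leaves, without overlap. Of the 5, LHCB1.3 (-0.43 ± 0.10) and LHCB2.1 (-0.45 ± 0.07), for light-harvesting proteins, fell, and CA1 (0.17), LHCA1 (0.00) and PSBO1 (-0.09) were not called. None of the 5 was at 0, and their part in the falls of PRK and GAPA was not tested. At 2 min none was called by limma, edgeR or DESeq2, against 1.66% of all genes, and none had an unadjusted p below 0.05.

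In myb30 systemic leaves no gene of the 10 was called at 2, 8 or 30 min by limma, edgeR or DESeq2, and none had an unadjusted p below 0.05. All tested genes were called at 0%, 0.88% and 11.6%. The 0 min group holds replicate 3, which lay nearer Col at 100% of the genes that separated the genotypes and had WRKY40 at 3317 normalised reads. Fits that left out a library or number, this library included, also called 0 of the 10 genes at each time. RBCS1B stood at 201, 222 and 195 kiloreads at 0 min and at 213, 130 and 164 kiloreads at 30 min, a change of -0.31 ± 0.16 (adjusted p = 0.232). Replicate 1 at 30 min is within the range of 0 min and the other two are below it.

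Local and systemic leaves of the same genotype were then compared directly. At 30 min RCA, RBCS1B, SBPASE, GAPB, PGK1 and RBCS2B were higher in Col local leaves, 6 of 10 against 50.4% of all tested genes (25% higher). RCA, at 1608 to 1796 kiloreads in local and 1190 to 1245 kiloreads in systemic leaves, differed by 0.50 ± 0.10 (1.41-fold, adjusted p = 0.000126 by limma) and was called under all 10 other settings, both other scalings included. The differences were 0.49 ± 0.16 for RBCS1B, 0.38 ± 0.09 for SBPASE, 0.33 ± 0.08 for GAPB, 0.28 ± 0.08 for PGK1 and 0.25 ± 0.10 for RBCS2B. In all 6 genes every local library exceeded every systemic library. The 6 were picked by their calls in these same libraries, and the share of all tested genes without overlap was not computed. The call of RBCS2B held in 3 of 9 fits with a library or number left out (0.18 to 0.34) and was lost without replicate 1 or 3 of either leaf. RBCS1A (-0.08 ± 0.11), RBCS3B (0.06 ± 0.12), PRK (0.02 ± 0.08) and GAPA (0.09 ± 0.09) were not called. With each library scaled to the same total, RCA kept its call (0.20), RBCS1B (0.18), SBPASE (0.08), GAPB (0.03), PGK1 (-0.03) and RBCS2B (-0.05) lost theirs, and RBCS1A, RBCS3B, PRK and GAPA were lower in local leaves. With quantile normalization RCA stayed higher (0.32), RBCS2B (-0.19), SBPASE (-0.15) and PGK1 (-0.42) were called lower in local leaves, as were PRK and GAPA, and RBCS1B (0.02) and GAPB (-0.014) were not called.

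In myb30 at 30 min RCA, SBPASE, GAPB and PGK1 were higher in local leaves, 4 of 10 against 42% of all genes (20.6% higher). The differences were 0.35 ± 0.10 for RCA (adjusted p = 0.00606 by limma), 0.33 ± 0.09 for SBPASE, 0.29 ± 0.08 for GAPB and 0.22 ± 0.08 for PGK1. Fits with a library or number left out called 0 to 5 genes. The call of PGK1 held in 3 of 9 such fits (0.12 to 0.29) and was lost without local replicate 1 or 2 or systemic replicate 2 or 3, that of RCA held in 6 of 9 and was lost without local replicate 2 (0.27), and that of GAPB held in 7 of 9 and was lost without systemic replicate 2 (0.22). RBCS1B (0.25 ± 0.16) and RBCS2B (0.18 ± 0.10) were not called. Scaled to the same total, none of the 4 was called, and RBCS1A and PRK were lower in local leaves. With quantile normalization RCA stayed higher (0.35), PGK1 was called lower (-0.18), and GAPB (-0.033) and SBPASE (0.05) were not called. At 0, 2 and 8 min none of the 10 differed between leaves by limma, edgeR or DESeq2 in either genotype, and none had an unadjusted p below 0.05. All tested genes were called there at 0%, 0.133% and 10.4% in Col and at 0%, 0.0409% and 3.91% in myb30. Same-numbered local and systemic libraries deviated together at 8 min, with correlations of 0.315 to 0.587 in Col and 0.499 to 0.585 in myb30. With the number as a block none of the 10 was called at 0, 2 or 8 min either.

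The difference between the time responses of local and systemic leaves was also tested as an interaction, which has its own error. In Col at 30 min RCA (0.55 ± 0.15, adjusted p = 0.00315), SBPASE (0.43 ± 0.13, adjusted p = 0.00686), PGK1 (0.34 ± 0.12, adjusted p = 0.0211) and GAPB (0.32 ± 0.11, adjusted p = 0.0267, all by limma) rose more in local leaves, 4 of 10 against 36.8% of all genes (18.4% higher). The value of RBCS1B was as large (0.55 ± 0.23) and was not called. It was called without both libraries in doubt (0.67, adjusted p = 0.0268 by limma), where 5 genes were called against 36.7% of all genes. Without the 3 outlying 0 min libraries none of the 10 was called, against 31.2% of all genes, and the value of RCA was 0.38 (adjusted p = 0.055). Under the same-total scaling RCA was not called (0.23), nor were SBPASE, PGK1 and GAPB, while RBCS1A and PRK were lower. With quantile normalization PGK1 was called in the other direction (-0.38), and RCA (0.24), GAPB (-0.078) and SBPASE (-0.16) were not called. With the compared groups alone none was called, with an adjusted p of 0.0894 for RCA. In Col at 2 and 8 min no gene was called, against 0.0409% and 4.15% of all genes. In myb30 none was called at 2, 8 or 30 min, against 0%, 1.27% and 22.7%, and none of these 5 interactions had a gene with an unadjusted p below 0.05 or a call by edgeR or DESeq2. The values for RCA and SBPASE in myb30 at 30 min were 0.20 ± 0.15 and 0.16 ± 0.13.

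The genotypes were compared at each time and leaf, which asks whether loss of MYB30 function changed these transcripts. None of the 10 was called in any of the 8 comparisons by limma, edgeR or DESeq2, against 0.0102%, 0.373%, 0.0153% and 1.42% of all genes in local leaves at 0, 2, 8 and 30 min and 0%, 0.0767%, 0.0102% and 0.726% in systemic leaves. Of 80 values, which ranged from -0.24 to 0.19 with standard errors of 0.08 to 0.16, 1 had an unadjusted p below 0.05, that of RBCS3B in local leaves at 2 min (-0.24 ± 0.12, adjusted p = 0.468). RBCS3B stood there at 479, 457 and 480 kiloreads in Col and 443, 351 and 409 kiloreads in myb30, without overlap. Both libraries that lay nearer the other genotype are in the systemic 0 min groups. Fits that left out a library or number, these libraries included, also called 0 of the 10 in each comparison. Quantile normalization did call genes between the genotypes in local leaves at 30 min, as counted in the last section.

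The genotypes' time responses were not called as different either. In local leaves 0%, 0% and 0.276% of all genes were called at 2, 8 and 30 min, in systemic leaves 0%, 0% and 0.143%, and none of the 10 in any of the 6 comparisons by limma, edgeR or DESeq2. At 30 min in local leaves the response of RCA was lower in myb30 by a log2 difference of -0.32 ± 0.15 (unadjusted p = 0.0384, adjusted p = 0.529) and that of PGK1 by -0.23 ± 0.12 (adjusted p = 0.557). PGK1 at 8 min was the other of 60 values with an unadjusted p below 0.05 (-0.25 ± 0.12). The response of RBCS1B in systemic leaves at 30 min differed by 0.39 ± 0.23 (adjusted p = 0.555). RCA, PGK1, GAPB and SBPASE were thus called in Col and not in myb30 local leaves, and the difference between the genotypes itself did not pass the test. All systemic comparisons here use the systemic 0 min groups, which hold both libraries that lay nearer the other genotype. Fits that left out a library or number also called 0 of the 10 in each of the 6 comparisons. Quantile normalization called a gene in local leaves at 30 min. The time comparisons of a genotype and leaf share their 0 min libraries, so they are not independent of each other.

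Ratios between genes of the same library do not change when a library is multiplied by a factor, as with the deposited and same-total scalings. Quantile normalization does change them, and they were not computed with it. They were chosen after the values were seen and are given per coding kilobase, as a description with no test. The ratio of SBPASE to PRK, both of the regeneration branch, stood at 0.851, 0.843 and 0.867 in Col local leaves at 0 min and at 1.11, 1.12 and 1.11 at 30 min. In myb30 local leaves it was 0.882, 0.855 and 0.860 at 0 min and 1.13, 1.05 and 1.09 at 30 min. The 6 local libraries of 30 min thus lie above the systemic libraries of 30 min, which were 0.841 to 0.906, and above all libraries of the other times. At 2 and 8 min the ratio had stayed at 0.802 to 0.919 in both leaves of both genotypes.

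The ratio of GAPB to GAPA, the 2 subunits of the same dehydrogenase, was 0.716 ± 0.008 in Col local leaves at 0 min and 0.918 ± 0.030 at 30 min. In myb30 local leaves it was 0.712 ± 0.036 and 0.875 ± 0.004. The systemic values at 30 min were 0.779 ± 0.036 in Col and 0.765 ± 0.028 in myb30, below every local library of that time. In Col systemic leaves the ratio was 0.673 ± 0.021 at 0 min, below every library of 30 min. The ratio of PGK1 to PRK in local leaves went from 0.526 ± 0.022 to 0.768 ± 0.014 in Col and from 0.534 ± 0.032 to 0.718 ± 0.016 in myb30, and in systemic leaves from 0.538 ± 0.034 to 0.644 ± 0.019 in Col and from 0.570 ± 0.025 to 0.639 ± 0.018 in myb30. The libraries of 0 and 30 min do not overlap in any of the 4, and the local ones of 30 min lie above the systemic ones. RCA relative to the sum of the small subunit genes was 0.213 ± 0.013 in Col local leaves at 0 min and 0.276 ± 0.003 at 30 min, against 0.217 ± 0.030 and 0.202 ± 0.018 in systemic leaves. In myb30 local leaves it was 0.238 ± 0.007 and 0.265 ± 0.017, and in myb30 systemic leaves 0.213 ± 0.016 and 0.206 ± 0.016. For this ratio too, every local library of 30 min lies above every systemic one of that time. In myb30 the leaves were already apart at 0 min, at 0.2324 to 0.2457 in local and 0.202 to 0.2315 in systemic leaves. The myb30 local libraries of 0 min overlap those of 30 min (0.2453 to 0.2783).

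**Figure D4:**
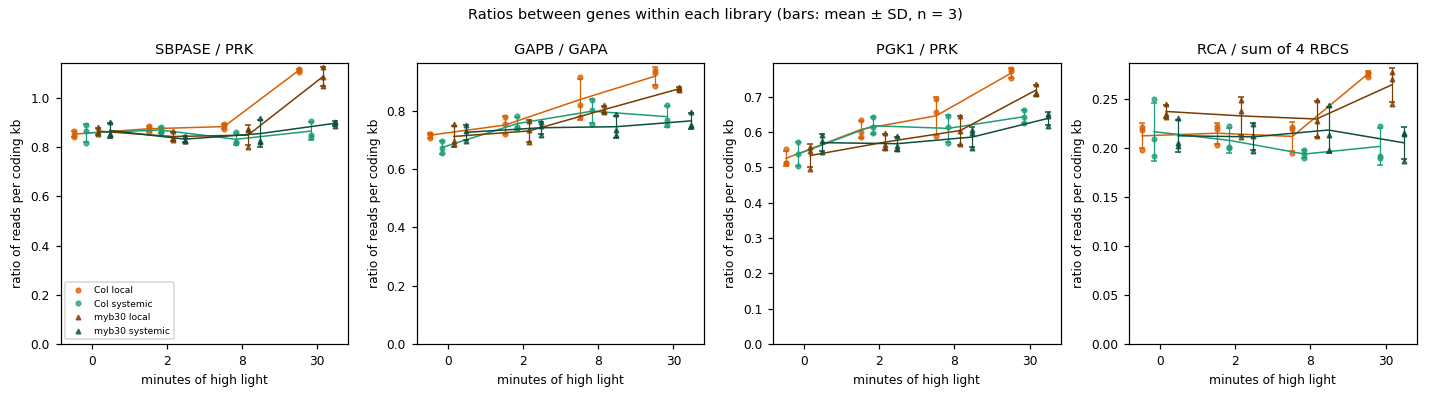
Ratios of reads per coding kilobase between SBPASE and PRK, GAPB and GAPA, PGK1 and PRK, and RCA and the sum of the 4 small subunit genes, against minutes of high light (evenly spaced). Points are libraries, bars mean ± SD (n = 3) and lines join the means of the 4 combinations of genotype and leaf. In every panel local leaves of both genotypes lie above the systemic ones at 30 min, for SBPASE to PRK at 1.05 to 1.13 against 0.841 to 0.906.

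The summed small subunit reads overlapped between all times, while the genes took different shares. The sum was 2342 ± 225 kiloreads in Col local leaves at 0 min and 2411 ± 162 kiloreads at 30 min, and 2403 ± 405 and 2337 ± 197 kiloreads in systemic leaves. Of the reads per coding kilobase of the 4 genes, RBCS1A held 52.3% to 59.4% in every library. The share of RBCS1B in Col systemic leaves was 9.91 ± 0.57% at 0 min and 7.99 ± 0.80%, 7.36 ± 0.72% and 6.24 ± 0.52% at 2, 8 and 30 min, with no overlap between 0 min and any later time. In Col local leaves it was 9.67 ± 0.64% at 0 min and 7.85 ± 0.96%, 7.64 ± 0.99% and 8.47 ± 0.37% at 2, 8 and 30 min. There too the share had no overlap between 0 min and any later time. In myb30 it was 9.60 ± 0.48% in local and 8.92 ± 0.20% in systemic leaves at 0 min, and 8.91 ± 0.17% and 7.47 ± 0.71% at 30 min.

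RBCS3B, the gene with which RBCS1B shares 100-base windows, had a share of 17.7 ± 1.2% in Col systemic leaves at 0 min and 19.9 ± 0.07% at 30 min. In Col local leaves its share was 18.1 ± 0.3% and 20.0 ± 0.4%. The libraries of 0 and 30 min do not overlap in either leaf. Reads assigned to RBCS1B and RBCS3B together stood at 673 ± 122 kiloreads at 0 min and 622 ± 52.0 kiloreads at 30 min in Col systemic leaves, with overlapping libraries. Whether reads of the shared sequence contribute to this was not tested, since the deposited values hold no alignments.

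**Figure D5:**
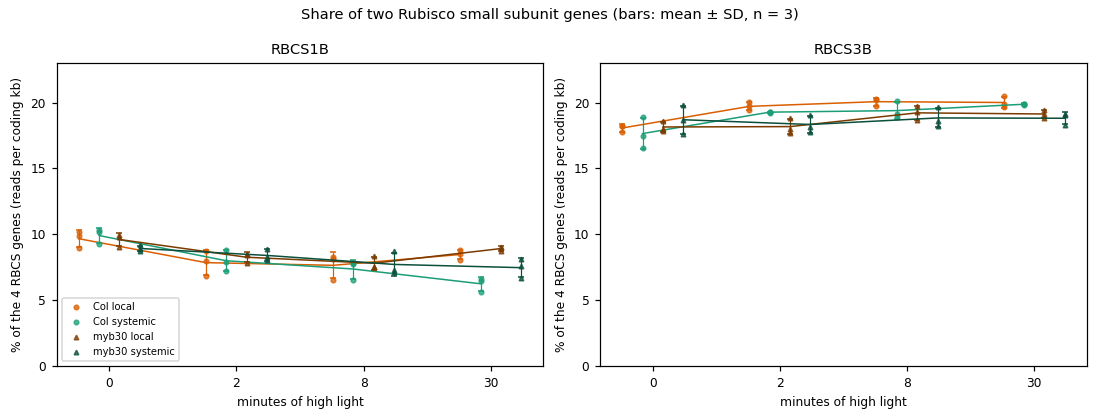
Share (%) of RBCS1B (left) and RBCS3B (right) in the reads per coding kilobase of the 4 small subunit genes, against minutes of high light (evenly spaced). Points are libraries, bars mean ± SD (n = 3) and lines join the means. In Col systemic leaves RBCS1B is at 9.91% at 0 min and 6.24% at 30 min, and RBCS3B at 17.7% and 19.9%.

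Over the 16 group means, the genes did not form 1 pattern. Of 45 pairs, 12 had a Pearson r above 0.7 and 13 an r below 0, with all points sharing the same libraries. The closest pairs were RCA with GAPB (0.94), RCA with SBPASE (0.94) and GAPB with SBPASE (0.92). PRK was close to GAPA (0.87) and not to RCA (0.01), and RBCS1A was close to RBCS3B (0.78) and not to RBCS1B (-0.21). Among 19546 other tested genes, those most like the mean pattern of the 10 over 16 group means were AT4G15940 (r = 0.925), GLDT (AT1G11860, r = 0.925), AT3G07170 (r = 0.914), AT1G15370 (r = 0.908) and AT2G04039 (r = 0.899). GLDT encodes the T protein of glycine decarboxylase, an enzyme of photorespiration.

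Other genes of carbon fixation were read from lists, whose counts at 30 min stand against the shares of all tested genes given above for the same comparisons. The lists were read with the deposited scaling only. Scaled to the same total, the median of all tested genes moved by -0.33 in Col local leaves at 30 min. Rises of about that size in the lists may therefore depend on the scaling, which was not tested for them. The large subunit transcript RBCL (ATCG00490), encoded in the chloroplast, stood at 5318 ± 126 normalised reads in Col local leaves at 0 min and 12460 ± 1592 at 30 min, a rise of 1.22 ± 0.12 (adjusted p = 7.99e-11 by limma), where no small subunit gene was called. It rose by 0.57 ± 0.12 in Col systemic leaves and by 0.61 ± 0.12 in myb30 local leaves at 30 min, and was not called in myb30 systemic leaves (0.06 ± 0.12). RBCL was lower in myb30 than in Col local leaves at 30 min (-0.71 ± 0.12, adjusted p = 0.000492 by limma). Reads of the whole chloroplast genome, RBCL included, also took a larger share in Col local leaves. They held 0.0452% to 0.0543% of all reads at 0 min and 0.0663% to 0.0779% at 30 min. In myb30 local leaves at 30 min the share was 0.0559% to 0.0587%. The value of a chloroplast transcript depends on how RNA was selected for the libraries, which the labels do not say.

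Of 11 other chloroplast enzymes of the cycle, 6 rose and 0 fell in Col local leaves at 30 min (median 0.24), led by PGK2 (0.44 ± 0.10), the fructose bisphosphatase gene CFBP1 (0.28 ± 0.07) and the aldolase gene FBA2 (0.28 ± 0.11). In Col systemic leaves 0 rose and 2 fell, the aldolase genes FBA1 (-0.48 ± 0.11, adjusted p = 0.000578 by limma) and FBA3 (-0.30 ± 0.08). In myb30 local leaves 2 rose and 1 fell, and in myb30 systemic leaves none was called.

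Of 10 regulators that act on the cycle, 6 rose and 0 fell in Col local leaves at 30 min. The thioredoxin genes TRXM4 (0.48 ± 0.06), TRXM1 (0.38 ± 0.07) and TRXM2 (0.35 ± 0.06) led. In Col systemic leaves 6 rose and 1 fell. CP12-2 fell (-0.49 ± 0.09), and the thioredoxin gene TRXF2 (0.27 ± 0.06) and CP12-1 (0.22 ± 0.06) rose. Of 10 genes for Rubisco assembly and chaperonins, 8 rose and 1 fell in Col local leaves and 1 rose in systemic leaves. The chaperonin subunit genes CPN60B2 (3.13 ± 0.20) and CPN60A1 (1.57 ± 0.19) and the co-chaperonin gene CPN20 (0.88 ± 0.12) led in local leaves, and RBCX1, for a Rubisco assembly chaperone, rose in systemic leaves (1.03 ± 0.25).

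In Col local leaves at 30 min, 4 of 13 photorespiration genes rose and 0 fell, among them the catalase gene CAT2 (0.48 ± 0.11), SHM1 (0.43 ± 0.09) and GLDH1 (0.22 ± 0.04), for a serine hydroxymethyltransferase and the glycine decarboxylase H protein. In Col systemic leaves 0 rose and 5 fell, including CAT2 (-0.62 ± 0.11), GLDP2 (-0.43 ± 0.12) and HPR1 (-0.29 ± 0.08). Of 9 genes of starch and sucrose synthesis and triose phosphate export, 7 rose and 1 fell in local leaves, with ADG1 (0.55 ± 0.13), SPSA1 (0.50 ± 0.07) and SS1 (0.30 ± 0.07) leading. In systemic leaves 1 rose (APL1, 0.25 ± 0.05) and 1 fell, the granule-bound starch synthase gene GBSS1 (-1.02 ± 0.24).

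Cytosolic counterparts of the cycle's kinase, dehydrogenase and aldolase were read as well. Of 6 cytosolic glycolytic genes, 5 rose in Col local leaves at 30 min (median 1.13), the aldolase gene FBA6 by 3.19 ± 0.10, PGK3 by 1.81 ± 0.13 and GAPC1 by 1.498 ± 0.09, and 3 fell in systemic leaves, PGK3 (-0.37 ± 0.13), GAPC2 (-0.33 ± 0.10) and FBA8 (-0.26 ± 0.07). PGK1 shares no 50-base window with PGK3, and their coding sequences were 75.6% identical outside gaps.

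Markers of other cell types were read in Col local leaves at 30 min, where 53.7% of all tested genes were called (27.2% higher). Their summed levels overlapped between 0 and 30 min in each list. The summed level of 5 epidermis markers was 49.8 to 68.1 kiloreads in Col local leaves at 0 min and 33.8 to 53.3 kiloreads at 30 min, with 0 of 5 higher and 2 of 5 lower. For 5 guard cell markers it was 176 to 188 and 180 to 201 kiloreads, with 0 of 5 higher and 4 of 5 lower, the most abundant (TGG1) not being called, and for 5 vascular markers it was 11.2 to 13.8 and 10.9 to 14.0 kiloreads, with 1 of 4 tested higher. None of these markers was at 0 in all libraries of either group. Their part in the values of the 10 genes was not tested.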

How the data were processed

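The submitters' processing notes name the TAIR10 build, STAR 2.4.0.1, FastQC 0.11.7, DESeq2 1.20.0 and cutadapt 1.18. How reads were assigned to genes, and whether strand was used, is not given in the sources. The authors deposited 1 table of normalised signal values, read counts divided by a size factor per library. Multiplied back, 100% of 1084756 values above 0 were whole within a relative tolerance of 1e-06, with size factors of 0.776 to 1.17. The main test was limma 3.58.1 (R 4.3.3), with trend, on log2(value + 1) for 19556 genes with a mean of at least 10, as 1 fit of 16 group means over 48 libraries, with Benjamini-Hochberg adjustment within each of 40 contrasts and a threshold of 0.05. Fold changes are on that scale, which understates those of low genes. All 10 genes passed the filter. Alternatives included edgeR 4.0.16 and DESeq2 1.42.0 on the recovered read counts, other pseudocounts, filters and scalings, and left-out libraries. The linear model was tested on simulated data.

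Sequences come from RefSeq (TAIR10.1), matched by gene identifier for all 10 genes. All 10 were named; of each other list, up to 3 called genes with the largest change at 30 min in Col local and in Col systemic leaves were named, and the 5 other genes with the closest pattern. The genes and lists were chosen with earlier results of these data known. Same-numbered libraries deviated together (all 3 correlations above 0.1) in 10 of 28 comparisons, Col systemic 30 min with 0.124, 0.135 and 0.199 among them; the pairing comes from the data, as no label says what a number means.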

Additional observations from a re-analysis of the deposited data

Results flagged for a closer look

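In Col, the change from 0 to 30 min differed between local and systemic leaves by an interaction test in limma for 4 of the 10 genes. The differences of log2 change, local minus systemic, were 0.55 for RCA, 0.43 for SBPASE, 0.34 for PGK1 and 0.32 for GAPB. None of the 4 was called without the 3 outlying 0 min libraries, with each library scaled to the same total or with the compared groups alone. With quantile normalization PGK1 was called in the other direction (-0.38), GAPB (-0.078) and SBPASE (-0.16) changed sign without a call, and RCA (0.24) was not called. The cause was not tested.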

How the results depend on the processing

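Of 25 calls, other settings gave 26 (edgeR), 29 (DESeq2), 18 (no filter on low values), 38 (quantile normalization), 32 (same total), 14 (threshold of 0.01), 10 (compared groups alone) and 31 (replicate block). These totals count higher and lower calls together, so a larger total does not mean that the 25 calls held. With the same total, RCA, PGK1, GAPB and SBPASE lost their calls in Col local leaves at 30 min, and other genes were called lower. With quantile normalization some calls were reversed, as listed below. All tested genes were called in that comparison at 69.6% with the same total and 53.5% with quantile normalization. The same-total scaling moved the median of all genes by -0.33 to 0.16. Pseudocounts of 0.5 and 8 moved no count by over 1.5 times. No cause of a change below was tested.

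Counts of called genes changed as follows, with 1 at 8 min and 2 at 30 min called in Col systemic leaves. With edgeR, Col systemic 8 min had 2 and myb30 local 8 min 0. With DESeq2, Col systemic 8 and 30 min had 2 and 4. Without a filter, Col systemic 8 min and myb30 local 8 min had 0, myb30 local 30 min 1 and the myb30 leaf comparison at 30 min 2. With quantile normalization, Col local 2, 8 and 30 min had 1, 2 and 8, Col systemic 8 and 30 min 2 and 4, myb30 local 8 min 2, the genotypes in local leaves at 30 min 2, leaf by time at 30 min 2 in Col and 2 in myb30, and genotype by time in local leaves at 30 min 1. With the same total, Col local 8 min had 3, Col systemic 8 and 30 min 2 and 5, myb30 local 8 min 3, the myb30 leaf comparison at 30 min 2 and leaf by time at 30 min 2 in each genotype. At 0.01, Col systemic 8 and 30 min had 0 and 1, myb30 local 8 and 30 min 0 and Col leaf by time at 30 min 2. With the compared groups alone, Col local 8 and 30 min had 0 and 1, Col systemic 8 and 30 min 0 and 1, myb30 local 30 min 0, the myb30 leaf comparison at 30 min 1 and Col leaf by time 0. With the replicate block, Col local 2 min had 1 (PGK1) and Col systemic 8 and 30 min 2 and 4, and Col leaf by time at 30 min added RBCS1B (adjusted p = 0.00513 by limma) and RBCS2B (adjusted p = 0.0223). Without both libraries in doubt, Col systemic 8 and 30 min had 2 and 4. Without the 3 outlying libraries, Col local 8 min had 0, Col systemic 8 and 30 min 0 and 1 and Col leaf by time at 30 min 0.

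Leaving out a library or number gave 0 to 1 in Col local leaves at 2 and at 8 min and 3 to 4 at 30 min, 0 to 3 and 1 to 4 in Col systemic leaves at 8 and 30 min, 0 to 1 and 0 to 2 in myb30 local leaves at 8 and 30 min, 3 to 6 in Col and 0 to 5 in myb30 between leaves at 30 min, and 1 to 6 for Col leaf by time at 30 min. Signs reversed under quantile normalization for GAPB (-0.20), SBPASE (-0.29) and PGK1 (-0.30) in Col local leaves at 30 min, RBCS2B (-0.19), GAPB (-0.014), SBPASE (-0.15) and PGK1 (-0.42) between Col leaves, GAPB (-0.033) and PGK1 (-0.18) between myb30 leaves, and GAPB (-0.078), SBPASE (-0.16) and PGK1 (-0.38) in Col leaf by time; all but the 3 values of GAPB outside Col local leaves over time, and SBPASE in leaf by time, were called. With the same total they reversed for GAPB (-0.085) and SBPASE (-0.10) in Col local leaves, RBCS2B (-0.053) and PGK1 (-0.029) between Col leaves, and GAPB (-0.0078) in Col leaf by time.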
